A study of Homo sapiens with 6 samples.

Results

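Hedgehog ligands, the receptors and regulators that carry the signal, and the GLI transcription factors were followed as a set of 9 genes: SHH, IHH, HHIP, PTCH1, SMO, SUFU, GLI1, GLI2 and GLI3. They were chosen by name, and all 9 were listed among the 25442 genes kept from the expression table. The cells were YAPC, a human pancreatic cancer cell line that stands for the classical subtype of the disease in the study. They carried the reverse tetracycline transactivator and a pRetroX-Tight-Puro vector, which switches its insert on when doxycycline (Dox) is added. In the iEV group (3 libraries) the vector was empty, and in the iGLI2 group (3 libraries) it held GLI2. Both groups were infected with retrovirus, selected with the same drugs and treated with Dox for 6 days, so the only labelled difference between them was the GLI2 insert. The insert encodes human GLI2 with a Flag tag, and its reads cannot be told apart from those of the cells' own GLI2 gene in these values. No library without Dox was analysed here, and nothing in the labels says that the 3 libraries of a group came from separate cultures, so p-values measure the spread between these libraries, which may be technical.

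In the Hedgehog pathway a secreted ligand (Sonic, Indian or Desert hedgehog) binds the receptor PTCH1. Free PTCH1 holds the membrane protein SMO inactive, and ligand binding releases it. Active SMO frees the GLI factors from SUFU, and the GLI factors then act on target genes. GLI1 mainly activates transcription, GLI3 mainly represses it, and GLI2 can do both. PTCH1, HHIP and GLI1 are textbook GLI targets: PTCH1 and HHIP bind and restrain the ligand, while GLI1 adds to the signal. In pancreatic cancer the ligand is known to be made by the epithelial tumour cells and mostly sensed by the surrounding stroma.

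The levels were read as FPKM (the table does not name its unit): the fragment count of a gene divided by its transcript length and by the library's mapped fragments. Read so, they are per length and can be set side by side between genes within a library. For GLI2 in iGLI2 this is approximate, since the insert is a cDNA whose length may differ from the transcript length used. The sequenced read depth behind them is not given in the sources used here, and no counting interval could be computed. The 6 libraries listed between 17843 and 18325 genes above 0. Small RNA genes held between 45.49 and 48.44 percent of the summed FPKM in iEV and between 38.97 and 40.47 percent in iGLI2. The groups did not overlap in this share. What it does to small differences cannot be told apart from the insert by design, and a rescaling without these genes is given below. The cells carried the markers of epithelium: KRT19, KRT7, EPCAM, CDH1, CLDN4 and MUC1 averaged 1 FPKM or more in both groups, though KRT8 and KRT18 were listed at 0 in every library. The 8 fibroblast markers summed to between 2.2 and 2.84 FPKM in iEV and between 2.93 and 3.93 in iGLI2, most of it COL1A1 and ACTA2, with DCN listed at 0 throughout. The 6 endothelial and leukocyte markers summed to between 3.06 and 3.69 FPKM over both groups, most of it CD68. Replicate 1 of iGLI2 stood apart, with less than the GLI2 level of the other iGLI2 libraries (94.5 against 195 and 207 FPKM). Its values are given below beside the results they touch.

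A GLI binding consensus, GACCACCCA, was searched on both strands in the promoter windows of RefSeq (GRCh38.p14), each 250 bases before to 50 bases after a transcript start, since PTCH1, HHIP and GLI1 moved together. Of 35116 windows, 83 (0.236%) held it. Windows were on hand for 7 of the 9 genes, all but GLI1 and GLI3. It was found in 1 of the 5 PTCH1 windows and in none of the windows of GLI2, SMO, SUFU, HHIP, SHH or IHH. For the lists read below, 0 of 25 windows of reported GLI targets held it. The same was true of 0 of 79 windows of other pathway genes and 1 of 50 windows of cilium genes. Sites further from the start were not searched, and a link between the match and the changes was not tested. The 250 bases before that PTCH1 start are shown because they hold the match, in capitals and in its reverse orientation. By exact match they lie on the minus strand at chr9:98271549-98271798 of GRCh37 (hg19), within an intron of longer PTCH1 transcripts and outside every annotated exon. The match begins 172 bases before the start.
PTCH1 upstream: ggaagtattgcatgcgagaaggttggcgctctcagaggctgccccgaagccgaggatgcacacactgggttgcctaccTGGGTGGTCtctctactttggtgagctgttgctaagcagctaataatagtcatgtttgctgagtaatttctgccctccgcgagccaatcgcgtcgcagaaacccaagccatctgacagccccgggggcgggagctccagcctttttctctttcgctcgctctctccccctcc
The other stretch shown lies between the RefSeq starts of HHIP and of the long noncoding RNA HHIP-AS1, which point away from each other with 136 bases between them, at chr4:145567172-145567307 of GRCh37, given on the HHIP strand. In GENCODE, HHIP-AS1 reaches further (145564071 to 145582509, minus strand), so that the stretch lies within that gene, outside its annotated exons, and the gene overlaps HHIP. It holds no exact match of the consensus, which says only that these letters are absent from this stretch.
HHIP to HHIP-AS1: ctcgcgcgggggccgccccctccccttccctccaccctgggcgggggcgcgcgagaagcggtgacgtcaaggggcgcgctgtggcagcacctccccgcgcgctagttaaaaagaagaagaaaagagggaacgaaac

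GLI2 itself was read first, as the check of the labels. GLI2, a zinc finger transcription factor on chromosome 2 (121493199 to 121750229, plus strand), was at 0.466, 0.412 and 0.344 FPKM in iEV replicates 1 to 3. It was at 94.5, 207 and 195 FPKM in iGLI2 replicates 1 to 3. Every iGLI2 library was above every iEV library, so the libraries match their labels, and the ratio of the group means was 406. On the log2(FPKM + 1) scale used for the tests, which understates the change of low genes, the difference was 6.81 (SE 0.3, limma adjusted p = 0.000162), the second largest increase among the 12493 genes that averaged 1 FPKM or more. In iEV the gene ranked between the 22.9th and 25.7th percentile of the genes listed above 0, and in iGLI2 between the 95.1st and 97.9th. Replicate 1 of iGLI2 held 47.0% of the mean of the other iGLI2 libraries, and without it the difference was 7.17.

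The pathway members moved in both directions. Of the 12493 genes, 2742 passed an adjusted p of 0.05 (21.9%), 1262 of them higher in iGLI2 (10.1%) and 1480 lower (11.8%). With small RNA genes left out and the libraries rescaled, the split was 1789 higher and 1224 lower. Of the 6 pathway members in this fit, 4 were higher (GLI2, GLI1, PTCH1, SUFU), 1 was lower (SHH) and SMO did not pass. The count supports nothing on its own, since GLI2 was put in by design. GLI1, GLI2 and PTCH1 averaged under 1 FPKM in iEV and entered the fit only through iGLI2. Without overlap between the groups were 5 of the 6, against 42.0% of all genes tested. HHIP had a lower mean and was tested among the 15850 genes averaging 0.1 FPKM or more, on the log2(FPKM + 0.1) scale, where 20.4% of genes passed and 9.91% were higher in iGLI2. GLI3 and IHH were below both limits and were not tested.

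**Figure D1:**
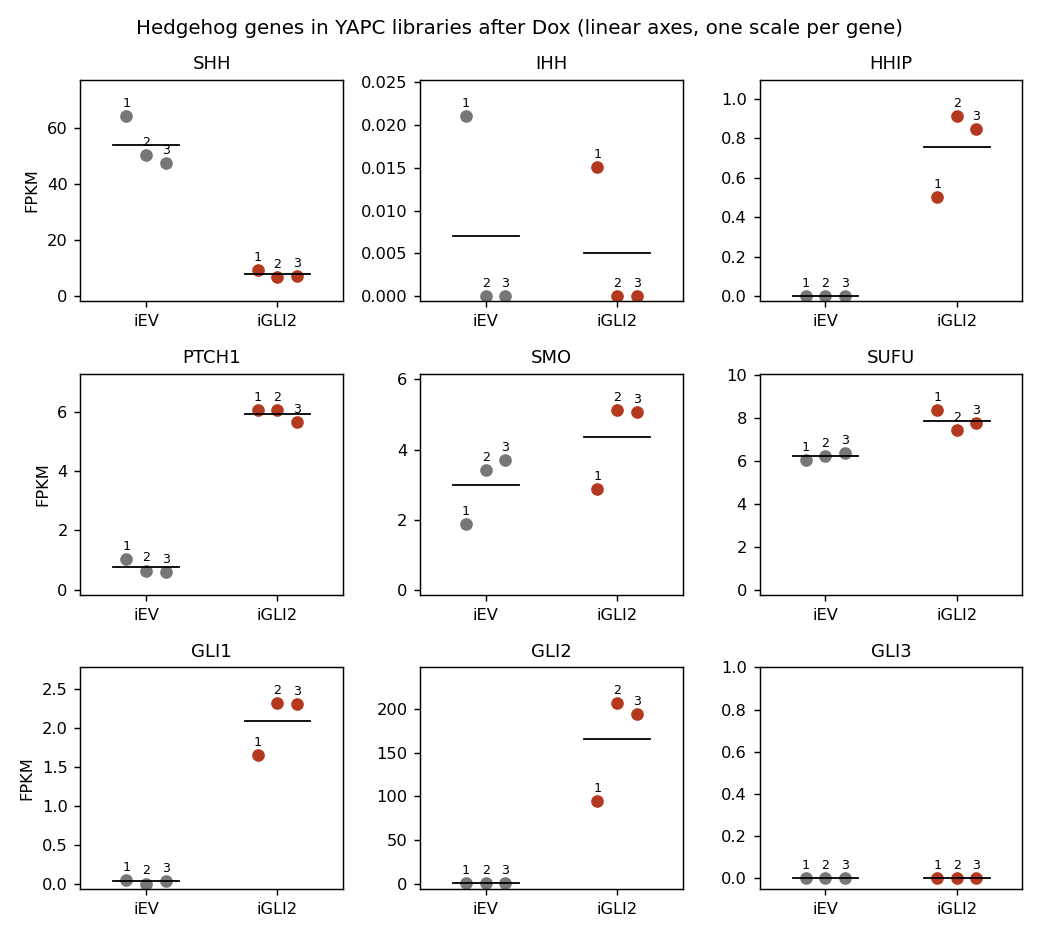
FPKM (vertical axes, linear, one scale per gene) of the 9 Hedgehog genes in each library; points are libraries labelled with their replicate number, grey for iEV and red for iGLI2, and bars are group means. SHH lies between 47.2 and 64.2 in iEV and between 6.9 and 9.18 in iGLI2, GLI3 is listed at 0 throughout, and the SMO points of the groups overlap.

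Among the ligands, SHH was the highest member in control cells and fell. SHH encodes Sonic hedgehog and lies on chromosome 7 (155592674 to 155605157, minus strand). It was at 64.2, 50.3 and 47.2 FPKM in iEV and at 9.18, 6.9 and 7.17 FPKM in iGLI2. The groups were far apart, with the lowest iEV library above the highest iGLI2 library, and the iEV mean was 6.95 times the iGLI2 mean. The log2 difference was -2.65 (SE 0.151, 95% interval -3.02 to -2.28, limma adjusted p = 0.000351). SHH ranked as the 31st largest decrease of the 12493 genes. It moved from between the 89.1st and 92nd percentile of a library to between the 56.7th and 62.4th. Replicate 1 was the highest library of both groups. The difference stayed between -2.76 and -2.52 whichever single library was omitted. In a bulk sample, fewer cells that make a transcript and less transcript per cell cannot be told apart.

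The other ligands were close to 0. IHH encodes Indian hedgehog (chromosome 2, 219919146 to 219925643, minus strand). It was at 0.0211 FPKM in iEV replicate 1 and 0.0151 FPKM in iGLI2 replicate 1, and was listed at 0 in the other 4 libraries. DHH, Desert hedgehog, was between 0.0231 and 0.0286 FPKM in iEV and between 0.0207 and 0.0385 FPKM in iGLI2. SHH was thus the only hedgehog ligand above 1 FPKM in these libraries, in both groups.

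HHIP, a membrane protein that binds hedgehog ligands and keeps them from their receptor, appeared with GLI2. The gene lies on chromosome 4 (145567308 to 145666423, plus strand). It was listed at 0 in all 3 iEV libraries and was at 0.5, 0.915 and 0.85 FPKM in iGLI2. Every iGLI2 library was above 0, and the lowest was again replicate 1. The difference on the log2(FPKM + 0.1) scale was 3.06 (SE 0.257, limma adjusted p = 0.000985). Its size is set by the pseudocount, so no fold is given against a group listed at 0, and the gene entered this fit only through iGLI2. HHIP-AS1, the noncoding gene on the other strand, was at 0.0337, 0.0369 and 0.156 FPKM in iEV and 0.643, 0.815 and 0.795 FPKM in iGLI2. It rose by 2.34 on the same scale (SE 0.301, limma adjusted p = 0.00406), and it too entered this fit only through iGLI2. The library kit did not mark strand, and 813 exonic bases are annotated in both genes (34% of those of HHIP-AS1 and 6.81% of those of HHIP), so reads there cannot be told apart.

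PTCH1, the receptor that restrains SMO, rose in every iGLI2 library. The gene lies on chromosome 9 (98205262 to 98279339, minus strand). It was at 1.03, 0.647 and 0.583 FPKM in iEV and at 6.07, 6.07 and 5.64 FPKM in iGLI2. The ratio of the means was 7.86, and the groups did not overlap. The log2 difference was 1.99 (SE 0.114, 95% interval 1.71 to 2.27, limma adjusted p = 0.000351). Within iGLI2, replicate 1, with 47.0% of the GLI2 of the others, had 104% of their PTCH1. In iEV, replicate 1 was also the highest, with 168% of the mean of the other iEV libraries. The PTCH1 ratios of same-numbered libraries were 5.89, 9.37 and 9.68 in replicates 1 to 3. Whether PTCH1 follows the level of GLI2 was not tested. The noncoding gene LOC100507346, which the table places at the locus of PTCH1, was between 0.167 and 0.221 FPKM in iEV and between 1.49 and 1.63 FPKM in iGLI2. Its difference was 2.45 on the log2(FPKM + 0.1) scale (limma adjusted p = 0.000353), and without strand its reads cannot be separated from those of PTCH1 where they overlap.

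SMO and SUFU, the steps between receptor and GLI factor, were expressed in both groups and differed by less than the other members tested. SMO, the membrane protein held inactive by PTCH1 (chromosome 7, 128828474 to 128853386, plus strand), was at 1.87, 3.42 and 3.71 FPKM in iEV and at 2.87, 5.14 and 5.08 FPKM in iGLI2. Replicate 1 was the lowest of each group, and the groups overlapped. The difference of 0.43 on the log2 scale did not pass the test (limma adjusted p = 0.309). Its 95% interval, -0.22 to 1.07, holds both no difference and more than a doubling. It was 0.2 without iEV replicate 1 and 0.65 without iGLI2 replicate 1, and neither passed.

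SUFU, which binds and restrains the GLI proteins (chromosome 10, 104263729 to 104393292, plus strand), was slightly higher in iGLI2. It was at 6.03, 6.22 and 6.37 FPKM in iEV and at 8.38, 7.44 and 7.74 FPKM in iGLI2. The ratio of the means was 1.26, with no overlap. The log2 difference was 0.3 (SE 0.0636, limma adjusted p = 0.0238). The call was lost when any of 5 libraries was left out (each iEV replicate, and iGLI2 replicates 2 and 3), with adjusted p up to 0.0974 and a difference between 0.25 and 0.33 throughout.

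Of the other GLI factors, GLI1 rose from near 0 and GLI3 was not seen. GLI1, an activator and itself a GLI target (chromosome 12, 57853568 to 57866051, plus strand), was at 0.0478, 0 and 0.0345 FPKM in iEV and at 1.65, 2.32 and 2.31 FPKM in iGLI2. Every iGLI2 library was above 1 FPKM and every iEV library below 0.05. The log2 difference was 1.58 with a pseudocount of 1 (SE 0.126, limma adjusted p = 0.000903). It was 4.11 with a pseudocount of 0.1 (limma adjusted p = 0.000291), so the size followed the pseudocount. GLI1 averaged 0.0274 FPKM in iEV, under the limits of both fits. It entered both only through iGLI2, so the second fit is no check of the first. GLI1 in iGLI2 replicate 1 was 71.4% of the mean of the other iGLI2 libraries. ARHGAP9, which the table places at the same locus on the other strand, shares 5 exonic bases with GLI1. It was at most 0.394 FPKM in any library and did not pass the test. GLI3 (chromosome 7, 42000547 to 42303699, minus strand) was listed at 0 in all 6 libraries. A value listed at 0 does not show that the gene is silent, since KRT8 and KRT18 are also listed at 0 in these epithelial cells.

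**Figure D2:**
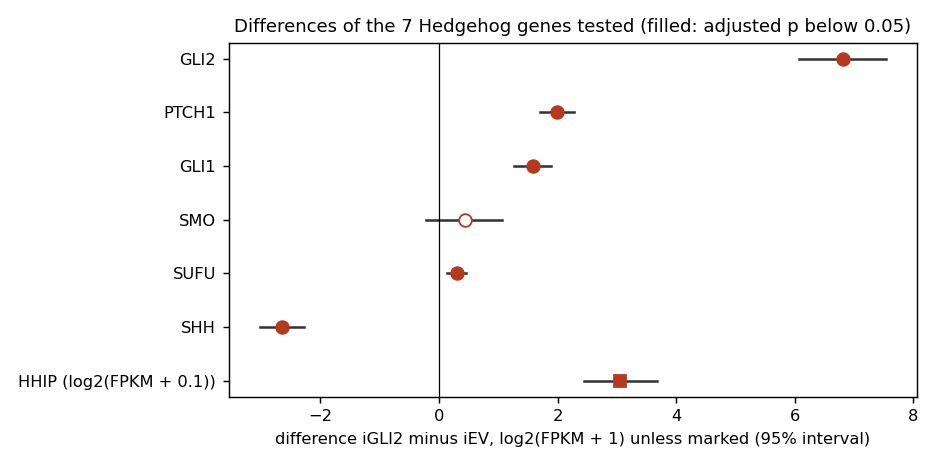
Difference iGLI2 minus iEV for the 7 Hedgehog genes tested, with 95% intervals from limma; circles are on the log2(FPKM + 1) scale and the square (HHIP) on the log2(FPKM + 0.1) scale, filled where the adjusted p is below 0.05. Only the SMO interval, -0.22 to 1.07, crosses 0, and SHH alone lies below it.

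The order of the levels changed with GLI2. In iEV it ran from SHH (mean 53.9 FPKM) through SUFU (6.21), SMO (3), PTCH1 (0.754) and GLI2 (0.407) to GLI1 and IHH, with GLI3 and HHIP listed at 0. Each neighbour down to GLI1 was separated from the next by non-overlapping ranges, while the ranges of GLI1, IHH, GLI3 and HHIP overlapped. In iGLI2 it ran from GLI2 (165) through SUFU (7.85), SHH (7.75), PTCH1 (5.93), SMO (4.36), GLI1 (2.09) and HHIP (0.755) to IHH and GLI3. There SUFU and SHH overlapped, as did IHH and GLI3, and the other neighbours did not. PTCH1 thus stood below SMO in every iEV library and above SMO in every iGLI2 library.

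**Figure D3:**
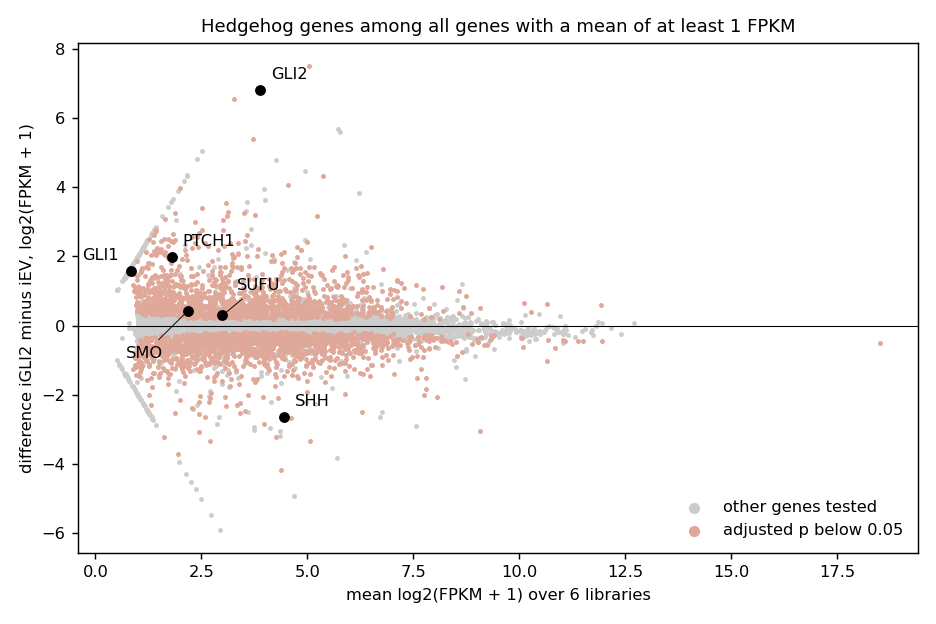
Difference iGLI2 minus iEV (vertical axis, log2(FPKM + 1)) against the mean level over the 6 libraries (horizontal axis) for the 12493 genes tested, pink where the adjusted p is below 0.05, with 6 Hedgehog genes in black. GLI2 (6.81) lies at the upper edge and SHH (-2.65) among the large decreases, while SMO and SUFU lie near 0.

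The genes with the most similar profiles were found for each of these 6 members by the root mean square difference between log2(FPKM + 1) values over the 6 libraries, each profile taken relative to its own mean. They are given as a description, with no test. Nearest to GLI2 were SPP1 (0.367), MIR4517 (0.499) and FGF19 (0.73). Nearest to GLI1 were DAPK1 (0.0554), S1PR1 (0.0667) and PTHLH (0.0668), and nearest to PTCH1 were SEMA7A (0.0528), SMPDL3A (0.0647) and PKIB (0.0656). SHH was nearest to SFTPA2 (0.107), HEG1 (0.14) and MUC1 (0.227). SMO was nearest to BEX2 (0.0328), CCDC85B (0.0753) and LOC101929705 (0.0874), each also lowest in replicate 1 of both groups. SUFU was nearest to ERMARD (0.0209), LGMN (0.0237) and OCIAD1 (0.0275). SPP1, the secreted protein osteopontin, was between 1.21 and 1.63 FPKM in iEV and at 286, 562 and 536 FPKM in iGLI2, with replicate 1 at 52.1% of the mean of the other iGLI2 libraries. MUC1, a mucin among the epithelial markers, fell from between 20.4 and 24.1 FPKM to between 3.38 and 3.93 FPKM (limma adjusted p = 0.000131). EPCAM and CDH1 rose (ratios of the means 1.29 and 1.3, adjusted p = 0.00709 and 0.0169). The other epithelial markers above 0 had lower means in iGLI2 and did not pass. Their ratios were 0.817 for CLDN4, 0.854 for KRT7 and 0.882 for KRT19 (limma adjusted p = 0.0628, 0.388 and 0.195).

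The remaining pathway genes were read from a list of 55, of which 41 averaged 1 FPKM or more. Of these, 6 were higher and 3 lower, 22% in all, close to the 21.9% of all genes. Their median log2 difference was 0.113, beside -0.015 over all genes tested. Of 8 genes that make and release the ligand, only 2 were tested in this fit, and neither passed. HHAT, which adds palmitate to the ligand, was between 1.42 and 1.6 FPKM in iEV and between 1.74 and 2.1 in iGLI2 (limma adjusted p = 0.131). DISP1, which exports it, was between 0.955 and 1.21 FPKM in iEV and between 1.19 and 1.66 in iGLI2 (adjusted p = 0.232). Of these 2 tested genes, 1 had an unadjusted limma p below 0.05. DISP1 passed with replicate 1 of both groups left out (limma adjusted p = 0.0457), an alternative added after the data were seen. SCUBE3, of a family that helps release the ligand, stayed at or below 0.204 FPKM (adjusted p = 0.295 in the fit of low genes).

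The coreceptors CDON and BOC rose from low levels. CDON and BOC, membrane proteins that help the ligand bind, were between 0.28 and 0.39 FPKM and between 0.212 and 0.388 FPKM in iEV. In iGLI2, CDON was at 0.635, 0.767 and 0.888 FPKM and BOC at 0.602, 0.645 and 0.878 FPKM. Both groups were without overlap, and the ratios of the means were 2.38 for CDON (limma adjusted p = 0.0138) and 2.59 for BOC (adjusted p = 0.0246). GPC3, a glypican that competes for the ligand, rose from between 2.81 and 3.06 FPKM to between 4.08 and 4.45 FPKM (adjusted p = 0.00832). GAS1, another coreceptor, was listed at 0 in 5 libraries and at 0.0242 FPKM in the other. CDON and BOC were below 1 FPKM in every library. CDON lost the call without iEV replicate 2 or iGLI2 replicate 2 or 3, and BOC without these or iEV replicate 1, with adjusted p up to 0.0895. BOC also lost it with replicate 1 of both groups left out.

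At the level of SMO and the cilium, GPR161, a receptor that keeps the pathway off through protein kinase A, showed the largest change. It was at 0.935, 0.7 and 0.948 FPKM in iEV and at 5.11, 3.62 and 3.62 FPKM in iGLI2. The ratio of the means was 4.78 (log2 difference 1.45, SE 0.139, limma adjusted p = 0.00157), with replicate 1 the highest of iGLI2. Its mean in iEV was under 1 FPKM, so it was tested only because of its level in iGLI2. ADRBK1, the kinase GRK2 that phosphorylates active SMO, fell from between 133 and 143 FPKM to between 85 and 107 FPKM (limma adjusted p = 0.0261), and ARRB1, an arrestin, fell from 12.6 FPKM in each iEV library to between 9.99 and 11.2 FPKM (adjusted p = 0.0346). Both calls were lost without any single iEV replicate or without iGLI2 replicate 2, and that of ADRBK1 also without iGLI2 replicate 3. That of ARRB1 was also lost with no filter on low values, with small RNA genes left out and rescaled, and with a term for the digit in the sample code. It was lost as well with replicate 1 of both groups left out.

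Among 26 tested genes of GLI processing and turnover, 4 were higher and 1 lower, 19.2% in all against 21.9% of all genes. DZIP1, a ciliary protein that acts on GLI factors, was at 0.735, 0.796 and 0.709 FPKM in iEV and 1.47, 1.89 and 1.8 FPKM in iGLI2 (limma adjusted p = 0.00844), and it also entered the fit only through iGLI2. DYRK1A, a kinase that acts on GLI1, rose from between 19.4 and 21.6 FPKM to between 28.2 and 30.8 FPKM (adjusted p = 0.00612). HDAC2, a deacetylase of GLI proteins, rose from a mean of 30.1 to 40.6 FPKM (adjusted p = 0.0113) and lost the call without iEV replicate 2 or 3. STK36, the Fused kinase homologue, rose from a mean of 3.12 to 4.4 FPKM (adjusted p = 0.0418), and CUL1, a scaffold of the ligase that processes GLI proteins, fell from 38.6 to 31.1 FPKM (adjusted p = 0.019). The call of STK36 was lost without any single library other than iGLI2 replicate 1, with no filter and with the sample code term, and that of CUL1 without iEV replicate 2 or 3 or iGLI2 replicate 2 or 3. KIF7, the ciliary kinesin that organizes SUFU and GLI, was between 1.06 and 1.5 FPKM over all libraries (adjusted p = 0.852). SPOP, which marks GLI proteins for degradation, was between 25.2 and 30.8 FPKM (adjusted p = 0.334).

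A list of 28 reported GLI targets was mostly low in these cells. It was written with values of KRT17 and SPP1 in these libraries already known, so its counts are no independent evidence. Only 10 averaged 1 FPKM or more, and 3 were higher and 2 lower, 50% in all against 21.9% of all genes, with a median log2 difference of -0.029. JAG2, a Notch ligand, was at 3.47, 2.88 and 2.85 FPKM in iEV and 8.46, 11.8 and 10.2 FPKM in iGLI2 (limma adjusted p = 0.00126). IGFBP6, a binding protein of insulin-like growth factors, was at 4.8, 3.81 and 3.71 FPKM in iEV and 9.98, 10.6 and 10.7 FPKM in iGLI2 (adjusted p = 0.000953). SPP1 was the third that rose (adjusted p = 0.000131). FOXF2, a forkhead factor, and BMP4, a secreted morphogen, fell from means of 7.42 and 17.1 FPKM to 5.52 and 12 FPKM (adjusted p = 0.0106 and 0.0239). FOXF2 lost the call without iGLI2 replicate 2, and BMP4 without iEV replicate 1 or 2 or iGLI2 replicate 2 or 3, or with small RNA genes left out and rescaled.

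Among the targets down to 0.1 FPKM, 9 of 23 were higher and 3 lower, 52.2% in all against 20.4% of all genes in that fit. BCL2, which blocks apoptosis, was at 0.242, 0.0431 and 0.138 FPKM in iEV and 1.04, 0.981 and 0.942 FPKM in iGLI2, with a ratio of the means of 7.01 (limma adjusted p = 0.00616). CCND2, a cyclin, moved the other way, from 0.531, 0.901 and 0.95 FPKM to 0.0895, 0.137 and 0.133 FPKM (adjusted p = 0.00382). FST, FOXF1, FOXC2 and IL1R2 rose while staying at or below 1.35 FPKM, with adjusted p between 0.00644 and 0.0293. FST and FOXF1 averaged less than 0.1 FPKM in iEV and were tested only through iGLI2. FOXF1, FOXC2 and IL1R2 lost the call without iEV replicate 2 or iGLI2 replicate 2 or 3, FOXC2 and IL1R2 also without iEV replicate 3, and IL1R2 also without iEV replicate 1. The cell cycle targets at high levels did not pass: CCND1 was between 140 and 154 FPKM in iEV and between 101 and 143 FPKM in iGLI2 (adjusted p = 0.154), and FOXM1 was between 26.7 and 28.4 FPKM and between 23.4 and 25.5 FPKM (adjusted p = 0.106).

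**Figure D4:**
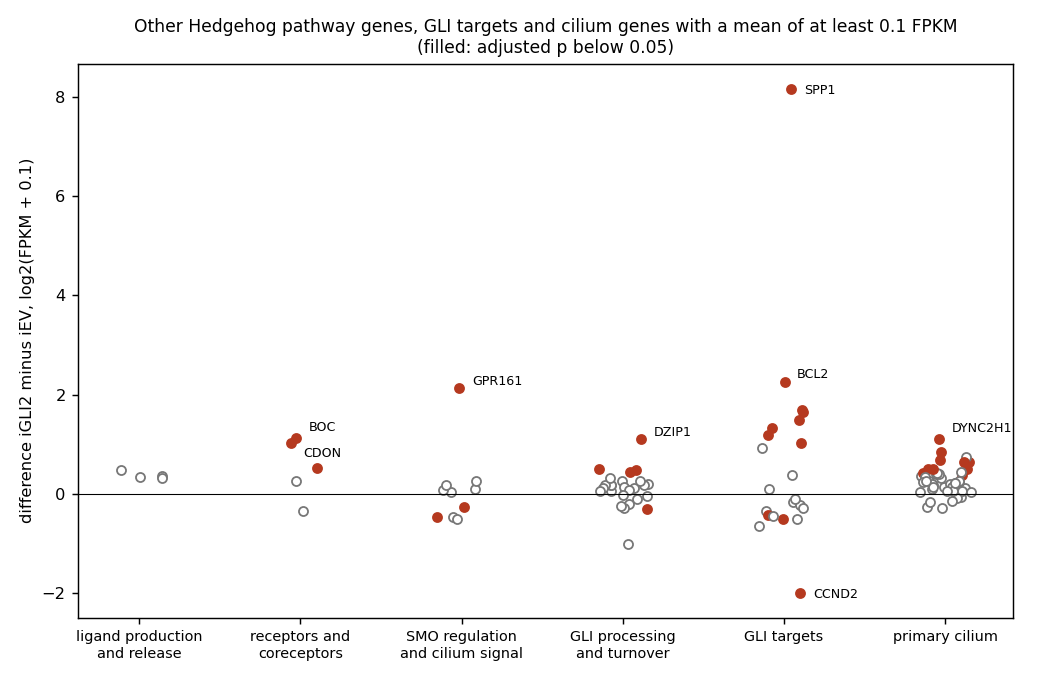
Difference iGLI2 minus iEV (vertical axis, log2(FPKM + 0.1)) of the pathway genes by role, GLI targets and primary cilium genes averaging 0.1 FPKM or more, with 1 gene not shown; each point is a gene, filled where the limma adjusted p is below 0.05, and points are spread sideways for legibility. SPP1, a GLI target, is the highest point at 8.16 and stretches the axis. CDON, BOC and GPR161 are among the genes above 1, BCL2 is at 2.26, and CCND2 is at -1.99. The cilium genes have a median of 0.229.

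The primary cilium is the organelle in which SMO and the GLI proteins are handled in most vertebrate cells. Of 48 genes of its transport machinery and gate, 47 were tested in limma, and 10 were higher and none lower. That is 21.3% called, against 21.9% of all genes in either direction and 10.1% of all genes for increases alone. At an unadjusted p below 0.05, 21 cilium genes were higher and none lower, beside 2058 higher and 2395 lower of all 12493 genes. The median log2 difference of the cilium genes was 0.19, beside -0.015 over all genes tested. The largest increases past the threshold in this fit were TCTN1, of the ciliary gate, which went from 6.75, 7.61 and 7.4 FPKM to 11, 13 and 15.4 FPKM (adjusted p = 0.00885), and IFT22, of the transport trains, which went from 10.4, 11.5 and 10.5 FPKM to 14.8, 18.9 and 17.5 FPKM (adjusted p = 0.01). IFT22 lost the call without iEV replicate 3. The remaining gene, DYNC2H1, a dynein of ciliary transport named here after its values were seen, had a larger difference in the fit of low genes, 1.11 (means of 0.396 and 0.989 FPKM, adjusted p = 0.0242), which was lost without any single library other than iGLI2 replicate 1. The number of cilium genes higher in iGLI2 ranged from 4 to 18 with 1 library left out: it was 6 without iEV replicate 1 or 2, 4 without iEV replicate 3, 18 without iGLI2 replicate 1 and 4 without iGLI2 replicate 2 or 3. The corresponding number of pathway genes called ranged from 4 (without iEV replicate 2 or 3) to 15 (without iGLI2 replicate 1), and it was 5 without iGLI2 replicate 2.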

How the data were processed

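The 6 RNA-seq libraries of YAPC cells, 3 iEV and 3 iGLI2, were all used. Per the labels and the study's methods, libraries were made with a kit that does not mark strand, trimmed with Trimmomatic and aligned with TopHat2 to hg19, and Cuffdiff 2.1.1 is named in the submitters' processing notes. The authors deposited 1 table of FPKM values per gene and library, estimated from the aligned reads; the table does not name the unit, which was read from the values. Annotation, scaling and read depth are not given in the sources used here, so depth gives no precision for a single value. The table's 27024 entries were reduced to 25442 genes by leaving out 1252 entries outside the primary chromosomes and 330 with a higher entry of the same name; gene names that had turned into dates were kept apart by locus.

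Groups and replicate numbers came from the sample titles. The groups were compared with limma 3.58.1 (R 4.3.3), a moderated two-sided test with an intensity trend, on log2(FPKM + 1) for genes averaging 1 FPKM or more, and on log2(FPKM + 0.1) for those averaging 0.1 FPKM or more. P-values were adjusted by Benjamini-Hochberg over all genes tested, with a threshold of 0.05. For single genes, an exact permutation test of 3 against 3 cannot go below 0.1 and was not used. The tests were tried on simulated data with independent normal errors drawn from the fitted variances. With planted changes of 1 on the log2 scale, 86.8% were recovered among 12493 genes and 71.1% among the 15850 of the fit of low genes. False calls, counted over all planted sizes, were 12 and 10. Errors shared between genes or libraries were not simulated, so these rates need not hold for the data. The members and gene lists were chosen with earlier results of these data known. All 9 members were named, with 12 pathway genes and 4 targets whatever their values (1 gene that is on both lists is not reported here), list genes past the threshold (of the cilium list those with the 2 largest changes in each direction) and the 3 nearest profiles per member. Gene positions came from GENCODE v44lift37 (GRCh37) and promoter windows from RefSeq. Alternatives were another pseudocount, other filters on low values, other scalings, a replicate block, a term for the digit in the sample code, no intensity trend and each library left out; leaving out replicate 1 of both groups was added after the data were seen. Figures were drawn with matplotlib 3.10.9.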

Additional observations from a re-analysis of the deposited data

How the results depend on the processing

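GLI1, GLI2, PTCH1, HHIP and SHH kept their direction and stayed past the threshold under every alternative in which they were tested, between 14 and 16 each. The log2 difference of SUFU stayed between 0.24 and 0.36. Its call was lost with a term for the digit in the sample code (limma adjusted p = 0.0526) and in 5 fits with 1 library left out. It was kept without iGLI2 replicate 1 (limma adjusted p = 0.0254). With the term for the digit in the sample code, 2084 genes were called in all. With a mean of at least 5 FPKM, fewer genes were tested: 3 members and 5 other pathway genes were called. Without a filter, 12 GLI targets were called, since more of them were tested. With small RNA genes left out and rescaled, 20 of 47 cilium genes were called, all of them higher. In that fit 3013 of 12156 genes were called, 59.4% of them higher, and the median log2 difference was 0.055. With 1 library left out, genes called ranged from 1223 to 3753 (1223 without iEV replicate 2, 1303 without iEV replicate 3, 1357 without iGLI2 replicate 2 and 1510 without iGLI2 replicate 3), members called from 4 to 5, other pathway genes from 4 to 15, GLI targets from 3 (without iGLI2 replicate 2) to 7, and cilium genes from 4 to 18. With replicate 1 of both groups left out, an alternative chosen after seeing the data, 5467 genes, 20 other pathway genes, 9 GLI targets and 24 cilium genes were called, and SMO passed (log2 difference 0.42, adjusted p = 0.0102). The cause of these shifts was not tested.

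The labels do not say whether the replicate numbers pair the samples, and the values do not settle it. Same-numbered libraries had correlations of their deviations of 0.204, 0.092 and 0.028. Of the differently numbered pairs, iEV replicate 2 with iGLI2 replicate 3 had 0.117, and the others lay between -0.193 and -0.012. With a replicate block, 3928 genes, 6 members, 15 other pathway genes, 6 GLI targets and 19 cilium genes were called, and SMO passed (log2 difference 0.43, adjusted p = 0.0129); its ratios of same-numbered libraries were 1.54, 1.51 and 1.37. Read depth is unknown, so what depth limits in the genes under 1 FPKM could not be measured.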
